A study of Rattus norvegicus with 6 samples.

Results

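The complement and coagulation systems of rat liver were described over 45 genes, 25 of coagulation and fibrinolysis and 20 of complement. A probe was taken as measuring one of them when the transcript accession printed beside it on the array belonged to that gene in RefSeq. This gave 68 of the 61657 non-control probes and 40 of the 45 genes, out of 15284 genes with a named probe. F11, F5, F13b, C5 and C8g had no probe by this match and were not analysed here. Of the 40 genes, 22 belong to coagulation and 18 to complement, and 18 genes had 1 probe, 17 had 2, 4 had 3 and Masp1 had 4.

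The livers came from male Sprague-Dawley rats aged 9 weeks. All rats of both groups had been dosed with corn oil at 5 mL/kg/day, for 3 days by the series' design text but for 9 weeks by the protocol of each sample, so the duration is unsettled. The rats of one group (n = 3) were anaesthetised with isoflurane, an inhaled anaesthetic, before the liver was taken, and those of the other group (n = 3) with a mixture of CO2 and O2, with 1 rat on each array. No group without anaesthesia was analysed here, so neither group shows the level of an unanaesthetised rat.

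Hepatocytes make and secrete most of the plasma proteins of both systems. In coagulation, factors circulate as inactive precursors that cleave one another in turn until thrombin converts fibrinogen into fibrin; inhibitors such as antithrombin restrain the cascade, and plasmin dissolves the clot. In complement, the classical, lectin and alternative pathways each lead to cleavage of C3, after which the terminal components assemble into a pore in the target membrane. Many of these proteins are acute phase proteins, whose hepatic synthesis responds to interleukin-6 and related cytokines.

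The promoter sequences of 5 members are given because their measurements carry the description that follows: the 3 fibrinogen chains and C3 were among the steadiest transcripts, and Klkb1 varied most between rats. A promoter window was at hand for 34 of the 45 members and for 27457 genes in all, from RefSeq on the assembly GRCr8. Each window holds the 250 bases before the annotated transcription start and is written 5′ to 3′ on the strand of the gene. Fga lies at chr2:170671919-170672168 on the plus strand, Fgb at chr2:170700876-170701125 on the minus strand and Fgg at chr2:170652833-170653082 on the plus strand. C3 lies at chr9:2201340-2201589 on the minus strand and Klkb1 at chr16:53690976-53691225 on the plus strand. Capitals mark matches to the motifs named after the sequences.

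Fga: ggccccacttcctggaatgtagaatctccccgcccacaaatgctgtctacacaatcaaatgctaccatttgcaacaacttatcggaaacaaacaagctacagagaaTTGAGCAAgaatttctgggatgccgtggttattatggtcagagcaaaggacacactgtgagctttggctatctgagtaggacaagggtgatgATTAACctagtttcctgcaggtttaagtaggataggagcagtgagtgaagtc

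Fgb: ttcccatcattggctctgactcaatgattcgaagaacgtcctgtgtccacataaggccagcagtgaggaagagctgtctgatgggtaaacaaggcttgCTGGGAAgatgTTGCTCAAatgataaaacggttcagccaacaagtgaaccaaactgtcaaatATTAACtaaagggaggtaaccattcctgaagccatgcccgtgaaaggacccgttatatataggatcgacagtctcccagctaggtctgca

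Fgg: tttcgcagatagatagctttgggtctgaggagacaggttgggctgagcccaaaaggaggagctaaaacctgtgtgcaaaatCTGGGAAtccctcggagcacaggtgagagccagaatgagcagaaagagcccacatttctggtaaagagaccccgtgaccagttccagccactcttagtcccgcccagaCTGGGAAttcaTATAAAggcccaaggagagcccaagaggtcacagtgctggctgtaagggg

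C3: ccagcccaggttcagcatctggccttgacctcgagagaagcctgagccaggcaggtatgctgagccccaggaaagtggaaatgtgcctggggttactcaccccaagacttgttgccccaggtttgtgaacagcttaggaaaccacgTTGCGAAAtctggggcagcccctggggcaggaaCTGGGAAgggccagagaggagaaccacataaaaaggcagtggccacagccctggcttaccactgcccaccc

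Klkb1: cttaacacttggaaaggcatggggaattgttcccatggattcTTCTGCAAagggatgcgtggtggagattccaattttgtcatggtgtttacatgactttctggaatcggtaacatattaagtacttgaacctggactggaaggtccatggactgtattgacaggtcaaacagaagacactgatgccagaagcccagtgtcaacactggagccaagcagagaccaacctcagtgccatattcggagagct

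The motifs were searched on both strands as fixed letters. The short HNF1 element (GTTAAT), a transcription factor of hepatocytes, was held by 11 members, or 32.4% of the 34, against 6.47% of all 27457 promoters. The core bound by C/EBP factors (TTGCNNAA) was held by 13 members, or 38.2%, against 9.20% of all promoters. The interleukin-6 type II element (CTGGGAA) was held by 10 members, or 29.4%, against 9.33% of all promoters. These 3 motifs were thus present in a larger share of the members' windows than of all windows, while the TATA box (TATAAA) was found only in Fgg among the 34 windows, against 13.1% of all promoters. The HNF4 core (CAAAGTCCA) and the full HNF1 palindrome matched no member window, and 0.331% and 0.00364% of all promoters. A match describes letters in a window and does not show that a factor binds there.

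Between the fibrinogen chains, whose genes lie together on chromosome 2, the motif content differed. Fga held an HNF1 element starting 52 bases before the start and a C/EBP core at 144 bases. Fgb held an HNF1 element at 90 bases, a C/EBP core at 141 bases and an interleukin-6 type II element at 152 bases. Fgg held the interleukin-6 element at both 61 and 169 bases and the TATA box at 50 bases, with neither of the other motifs. The C3 window held a C/EBP core at 104 bases and an interleukin-6 element at 71 bases, and the Klkb1 window held a C/EBP core at 208 bases.

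Probes well above background made up 56.9% to 62.3% of each CO2/O2 array, 60.6% of the first isoflurane array, and 53.4% and 55.7% of the other isoflurane arrays, which lay in a slide row of their own. No spot was saturated, and 2 to 60 spots were marked as outliers, with the highest number on the second isoflurane array and none on a member's probe. All 12 hepatocyte markers, including albumin, were well above background on all 6 arrays, so the labelled tissue showed its defining markers. Values are given as the log2 signal relative to the 75th percentile of the same array, so that 0 is that percentile and a step of 1 is a 2-fold difference. A probe's value depends on its sequence, so values were compared between rats for the same probe and never between genes.

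Nearly all of the measured cascade was detected. Of the 40 members with a probe, 39 were well above background on all 6 arrays. The exception was F13a1, the catalytic subunit of the fibrin-crosslinking factor XIII, which is made mainly by cells of bone marrow origin. Its probes were not well above background on any array, with values from -7.22 to -4.70, so no level or fold is given. By the scanner's weaker flag, of a signal significantly above background, each of its 2 probes passed on 5 arrays. The transcript was therefore too dim to measure here rather than shown to be absent. Thbd had a second probe that was well above background on no array, though it passed the weaker flag on all 6. For Tfpi, 1 of the probes was well above background on 5 arrays, 3 of CO2/O2 and 2 of isoflurane. Both genes were measured through another probe. The probe closest to saturation was that of C3, which reached 76.9% of the scanner's saturation signal, and 8 members passed 50% of it without saturating.

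The comparison of isoflurane with CO2/O2 asks whether the choice of anaesthetic at killing alters hepatic transcripts. No member passed the threshold: 0 of 39 tested members were called by limma at an adjusted p under 0.05 (Benjamini-Hochberg over 34637 tested probes). Thbd came closest, with an adjusted p of 0.661 from limma. Over all 10609 tested genes the same rule also called 0 genes, which is 0%. Of the 34637 tested probes 3 were called, but none of them was the probe that stood for a gene. At an unadjusted p under 0.05, limma took 0 of 39 members against 804 genes, or 7.58%, and the replicate-block fit likewise took 0 members. The values of the groups did not overlap for 3 members, F12, Cpb2 and Serping1, all lower after isoflurane; that is 7.69% of the members against 14.2% of all genes. In bulk liver, fewer cells of a type and less RNA per cell cannot be told apart. With 3 rats a group, a p above the threshold does not show that the groups were alike, so the intervals of the differences are given next.

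The differences were small and closely bounded. The median difference, isoflurane minus CO2/O2, was 0.034 log2 over the 39 members, 0.031 over the 21 coagulation members and 0.043 over the 18 complement members, beside -0.011 over all genes. The absolute difference was under 0.1 log2 in 22 members, under 0.2 in 35 and under 0.4 in 37, whereas 48.16%, 73.53% and 90.63% of all genes lay within those limits. The 95% interval of the difference lay within a 1.2-fold change either way for 15 members (38.5%, against 13.3% of all genes). It lay within 1.5-fold for 34 members (87.2%, against 71.8%) and within 2-fold for 37 (94.9%, against 90.5%). The members whose interval reached past 1.5-fold were Klkb1, F3, Thbd, Cfd and C6, and those past 2-fold were Klkb1 and Cfd. By sign alone 25 members were higher and 14 lower after isoflurane, with 52.9% of all genes lower. Centring each array on its median in place of the 75th percentile turned this split to 14 higher and 25 lower, with 68.78% of all genes lower, so the sign of differences this small depends on the scaling.

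**Figure D1:**
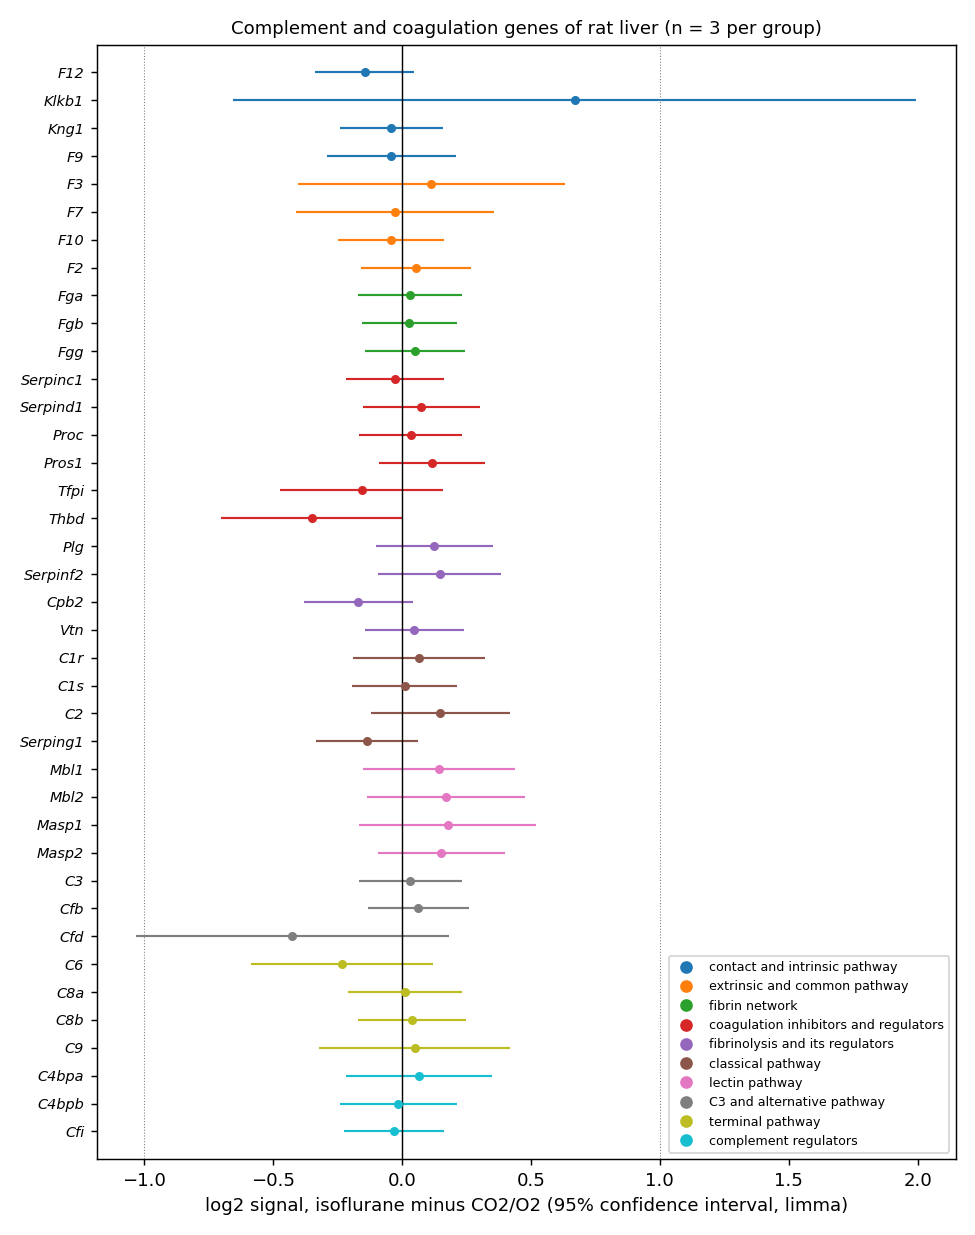
Differences between isoflurane and CO2/O2 (log2, horizontal axis) for the 39 tested members, ordered by role, with points for the fitted difference and bars for its 95% interval from limma. The widest intervals belong to Klkb1 and Cfd, and most other points lie within 0.2 log2 of 0.

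In the contact and intrinsic pathway, where factor XII, prekallikrein and kininogen start the intrinsic cascade on charged surfaces, 1 of 4 tested genes was higher after isoflurane and 3 were lower, with a median difference of -0.042. F12, which encodes factor XII, read 7.32, 7.34 and 7.30 in the CO2/O2 rats and 7.25, 7.15 and 7.12 in the isoflurane rats. On this probe the groups did not overlap, with all 3 isoflurane rats below all 3 CO2/O2 rats. The difference of -0.15 (SE 0.080) had an adjusted p of 0.725 in limma. The second F12 probe gave -0.091, and there the groups overlapped. Kng1, which encodes high molecular weight kininogen, differed by -0.042 and F9, the gene of the haemophilia B factor, by -0.042 as well, both with overlapping groups. The rat genome holds kininogen genes of closely related sequence, so the Kng1 signal may be shared with them.

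Klkb1, which encodes plasma prekallikrein, was the member that varied most between rats. It read 4.0, 4.10 and 4.24 in the CO2/O2 rats and 6.13, 4.20 and 4.02 in the isoflurane rats. The first isoflurane rat thus stood 2.03 log2, or 4.08-fold, above the median of the other 5, which spanned only 4.0 to 4.24. The group difference of 0.67 (SE 0.55, adjusted p = 0.808 in limma) rested on that rat and was -0.0028 without it. The within-group SD of Klkb1, 0.83, was at percentile 98.1 of all genes tested. On the slide, that array shared a row with all 3 CO2/O2 arrays, apart from the other isoflurane arrays; with slide row as a block the difference was 2.02 (adjusted p = 0.126 in limma) and compared this rat alone with the CO2/O2 rats.

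The gene next to Klkb1 on chromosome 16 was off its usual level in the same rat. Cyp4v3, which encodes a fatty acid hydroxylase of the cytochrome P450 family, was looked at because of this position, after the Klkb1 values were seen. Its brighter probe read 2.85, 2.83 and 2.95 in the CO2/O2 rats and 1.44, 2.87 and 2.75 in the isoflurane rats. The first isoflurane rat lay below all the others, by 1.42 log2 (2.67-fold) from their median, and a second Cyp4v3 probe placed it 2.79-fold below. Klkb1 and Cyp4v3 therefore departed in opposite directions in 1 rat. The next genes moved less in that rat: the probes of Tlr3, an innate receptor of double-stranded RNA, stood 0.39 and 0.57 log2 above the median of the other 5, and those of Fat1 0.23 to 0.48. The other neighbour, F11, had no probe. In that rat 145 genes, or 1.37% of those tested, lay over 1 log2 from the median of the other 5, and on the other arrays 0.971% to 2.89% of genes did. Klkb1 was the only member to do so on any of the 6 arrays. Whether the departure lies in the animal or in the array was not tested.

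**Figure D2:**
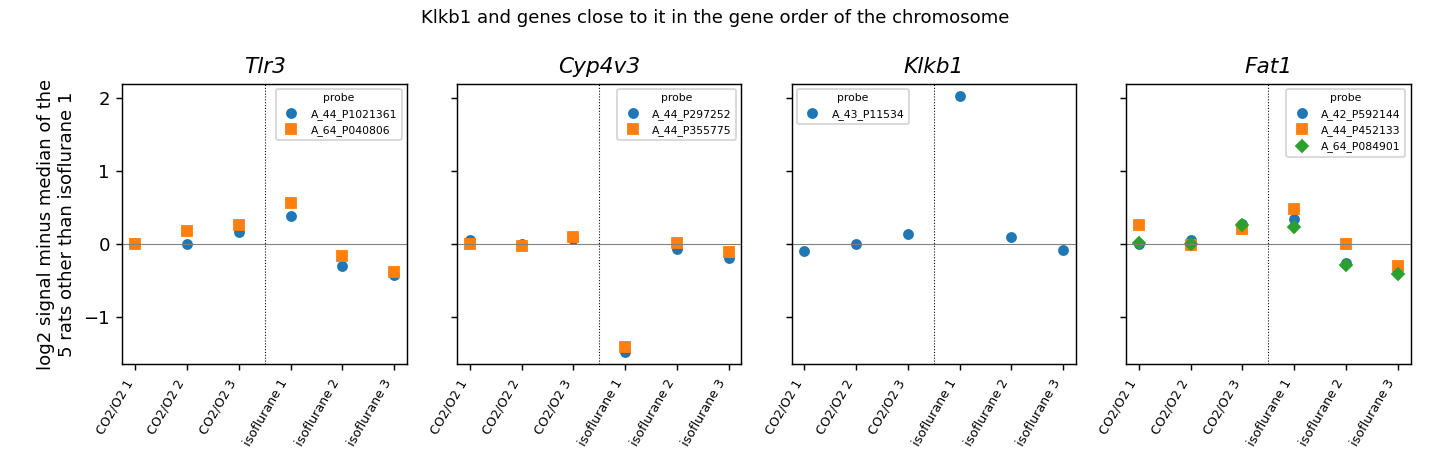
Log2 signal of each probe minus its median over the 5 rats other than the first isoflurane rat (vertical axis), for Klkb1 and genes near it on the chromosome, on each of the 6 arrays (horizontal axis), with 1 symbol for each probe. In the first isoflurane rat Klkb1 stands at 2.03, while the probes of its neighbour Cyp4v3 stand at -1.48 and -1.42.

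In the extrinsic and common pathway, in which tissue factor and factor VII activate factor X and factor X activates prothrombin, 2 of 4 tested genes were higher and 2 lower, with a median difference of 0.012. F2, which encodes prothrombin, read 8.85, 8.90 and 8.77 in the CO2/O2 rats and 8.95, 8.93 and 8.79 in the isoflurane rats. The groups overlapped, and the difference was 0.053 (SE 0.088). F10 differed by -0.043. F7 and F3 were less steady. F7 read 1.25, 1.16 and 0.73 under CO2/O2 and 0.86, 1.1 and 1.09 under isoflurane, a difference of -0.029 (SE 0.16). F3, the gene of tissue factor, read -1.83, -2.08 and -1.46 under CO2/O2 and -1.97, -1.70 and -1.36 under isoflurane, a difference of 0.11 (SE 0.21). The groups overlapped in both genes, and the CO2/O2 rats spread more widely than the isoflurane rats for F7, with SDs of 0.27 and 0.13. The within-group SDs of 0.22 for F7 and 0.31 for F3 were above the median of all genes, 0.15. F7 and F10 lie next to each other on chromosome 16.

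The fibrinogen chains were among the steadiest transcripts measured. Fga, encoding the alpha chain, read 8.70, 8.84 and 8.87 under CO2/O2 and 8.87, 8.81 and 8.82 under isoflurane. Fgb, encoding the beta chain, read 9.12, 9.18 and 9.11 under CO2/O2 and 9.15, 9.21 and 9.14 under isoflurane. Fgg, encoding the gamma chain, read 8.81, 8.80 and 8.88 under CO2/O2 and 8.95, 8.87 and 8.82 under isoflurane. In every chain the groups overlapped, and the 6 rats spanned 0.16, 0.097 and 0.15 log2 respectively. The differences were 0.031 (SE 0.083), 0.029 (SE 0.076) and 0.051 (SE 0.080), with adjusted p values of 0.954, 0.953 and 0.910 in limma. All 3 were below 0 with median centring, at -0.028, -0.031 and -0.0084. The within-group SD of Fgb, 0.036, was smaller than that of all but 1.61% of the genes tested. On the second probes of Fgb and Fgg it was 0.060 and 0.076. The probes used for Fga, Fgb and Fgg reached 52.3%, 68.0% and 57.9% of the scanner's saturation signal. Whether signals this bright narrow the measured spread was not tested. F13a1 was not detected, as given above.

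Of the inhibitors and regulators of coagulation, 3 of 6 tested genes were higher and 3 lower, with a median difference of 0.0026. Thbd, which encodes thrombomodulin, the endothelial receptor that turns thrombin towards activation of protein C, had the smallest p of all members. It read 0.35, 0.49 and 0.02 in the CO2/O2 rats and -0.21, -0.01 and 0.03 in the isoflurane rats. The third CO2/O2 rat lay within the isoflurane range, so the groups overlapped. The difference was -0.35 (SE 0.15), with a 95% interval from -0.70 to 0.003 and an adjusted p of 0.661 in limma. Of 12 endothelial markers 9 had a probe, and each of those was well above background on some array. Their summed log2 level ran from 6.07 to 6.26 under CO2/O2 and from 5.94 to 6.22 under isoflurane. The part of endothelial cell content in the Thbd values was not tested.

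The inhibitors made by hepatocytes differed less. Serpinc1, the gene of antithrombin, differed by -0.028, Serpind1, that of heparin cofactor II, by 0.075, and Proc, that of protein C, by 0.034. Pros1, whose product protein S is the cofactor of activated protein C, differed by 0.12. Groups overlapped on the probes used for these genes. On the second probes of Proc and Pros1, which differed by 0.046 and 0.15, the isoflurane rats lay above the CO2/O2 rats without overlap, with adjusted p of 0.914 and 0.712 in limma. Tfpi, the inhibitor of tissue factor and factor VIIa, differed by -0.16 (SE 0.13) on its brightest probe. Its other probes gave -0.16 and 0.34 and so disagreed in sign. On the probe that gave 0.34, the second isoflurane rat read -2.88, while all other rats lay between -4.29 and -3.85.

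In fibrinolysis, 3 of 4 tested genes were higher and 1 was lower, with a median difference of 0.087. The lower one was Cpb2, which encodes TAFI, a carboxypeptidase that protects fibrin from plasmin. It read 5.40, 5.22 and 5.27 under CO2/O2 and 5.08, 5.10 and 5.19 under isoflurane. The groups did not overlap, with the highest isoflurane rat just below the lowest CO2/O2 rat. The difference was -0.17 (SE 0.088), with an adjusted p of 0.712 in limma. Plg, the gene of plasminogen, differed by 0.13 on its brighter probe and by -0.074 on the other. Serpinf2, encoding the plasmin inhibitor alpha-2-antiplasmin, differed by 0.15, and Vtn, encoding vitronectin, by 0.048.

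In the classical pathway of complement, 3 of 4 tested genes were higher and 1 was lower, with a median difference of 0.038. The lower one was Serping1, which encodes the C1 inhibitor that restrains both C1r and C1s and the contact system. It read 8.82, 8.68 and 8.73 under CO2/O2 and 8.63, 8.63 and 8.56 under isoflurane. All isoflurane rats lay below all CO2/O2 rats on this probe. The difference was -0.14 (SE 0.081), with an adjusted p of 0.739 in limma, and the other Serping1 probes gave -0.081 and -0.0021. C1r and C1s, the proteases of the C1 complex, differed by 0.067 and 0.0096, and C2, the protease of the classical C3 convertase, by 0.15.

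With all 6 rats, the lectin pathway had the largest median difference of any role group. Its genes encode the mannose-binding lectins that recognise microbial sugars and the serine proteases attached to them, and all 4 were higher after isoflurane by a narrow range of 0.14 to 0.18, with a median of 0.16. Masp2, encoding the protease that cleaves C4 and C2, read 4.45, 4.51 and 4.42 under CO2/O2 and 4.46, 4.76 and 4.62 under isoflurane. The first isoflurane rat lay inside the CO2/O2 range, and the groups overlapped. The difference was 0.15 (SE 0.10), and limma gave an adjusted p of 0.763. On the probe used for each gene, this was lower than for the other genes of the pathway. Mbl1 differed by 0.14, Mbl2 by 0.17 and Masp1 by 0.18, and the 4 probes of Masp1 gave 0.18, 0.19, 0.28 and 0.20. On the Masp1 probe that gave 0.20, the isoflurane rats lay above the CO2/O2 rats without overlap, with an adjusted p of 0.730 in limma. All 4 genes were also higher under normexp, quantile and median scaling, and with each array left out. The median of the group was 0.077 without the second isoflurane rat, below the 0.083 of fibrinolysis, so its place as the largest rested on that rat. With slide row as a block, which compares the first isoflurane rat alone with the CO2/O2 rats, 3 were higher and 1 lower, and the median was again 0.077.

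Among C3 and the alternative pathway, 2 of 3 tested genes were higher and 1 was lower. C3, on whose cleavage all pathways converge, differed by 0.032 (SE 0.083), and its 6 rats spanned 0.16 log2. Cfb, the protease of the alternative convertase, differed by 0.063, and a second Cfb probe gave 0.16 without overlap. Cfd, which encodes factor D, the protease that cleaves factor B and is otherwise known as the fat cell product adipsin, was the other variable member. It read 3.78, 3.80 and 2.95 under CO2/O2 and 2.92, 3.27 and 3.07 under isoflurane. The CO2/O2 rats were split, 2 above every isoflurane rat and the third near the lowest, so the groups overlapped. The difference was -0.43 (SE 0.25), with a 95% interval from -1.03 to 0.18 and an adjusted p of 0.735 in limma. It was -0.71 without the third CO2/O2 rat, -0.29 without the first and -0.28 without the second. Of 7 adipocyte and mesothelial markers 5 had a probe, and the defining fat cell markers Adipoq and Lep were well above background on no array. The summed log2 level of these markers was 3.41, 3.22 and 3.04 under CO2/O2 and 3.14, 3.05 and 3.12 under isoflurane. Nearly all of this sum came from Cidec, a lipid droplet gene, which read 3.32, 3.12 and 2.88 under CO2/O2 and 2.98, 2.95 and 3.00 under isoflurane. Fabp4, another fat cell gene, went the other way, with a difference of 0.86 (SE 0.31) and all isoflurane rats above all CO2/O2 rats. However, it was well above background on only 5 arrays and was tested through the isoflurane group, where it was higher. The part of fat cell content in the Cfd values was not tested.

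In the terminal pathway, whose products build the membrane attack complex, 3 of 4 tested genes were higher and 1 was lower, with a median difference of 0.025; with median centring all 4 were lower. The lower gene, C6, read 4.36, 3.89 and 4.12 under CO2/O2 and 4.05, 3.77 and 3.86 under isoflurane. The groups overlapped, and the difference was -0.23 (SE 0.15, adjusted p = 0.747 in limma). It was -0.11 without the first CO2/O2 rat and -0.35 without the second. The chains of C8, which binds the forming pore, were steady. C8a read 5.98, 6.01 and 5.97 under CO2/O2 and 6.10, 6.03 and 5.87 under isoflurane, a difference of 0.013 (SE 0.091). C8b read 5.30, 5.33 and 5.46 under CO2/O2 and 5.46, 5.40 and 5.35 under isoflurane, a difference of 0.038 (SE 0.086). In neither chain did one group lie apart from the other. C9, which polymerises to form the pore, differed by 0.048 (SE 0.15) and spanned 0.50 log2 over the 6 rats.

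Of the fluid-phase regulators, 1 of 3 tested genes was higher and 2 were lower. C4bpa, the alpha chain of C4b-binding protein, read 6.52, 6.48 and 6.84 under CO2/O2 and 6.69, 6.69 and 6.67 under isoflurane. The isoflurane rats lay between the CO2/O2 rats, and the difference was 0.066 (SE 0.12). C4bpb, the beta chain, differed by -0.014 and Cfi, the protease that inactivates C3b and C4b, by -0.030.

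**Figure D3:**
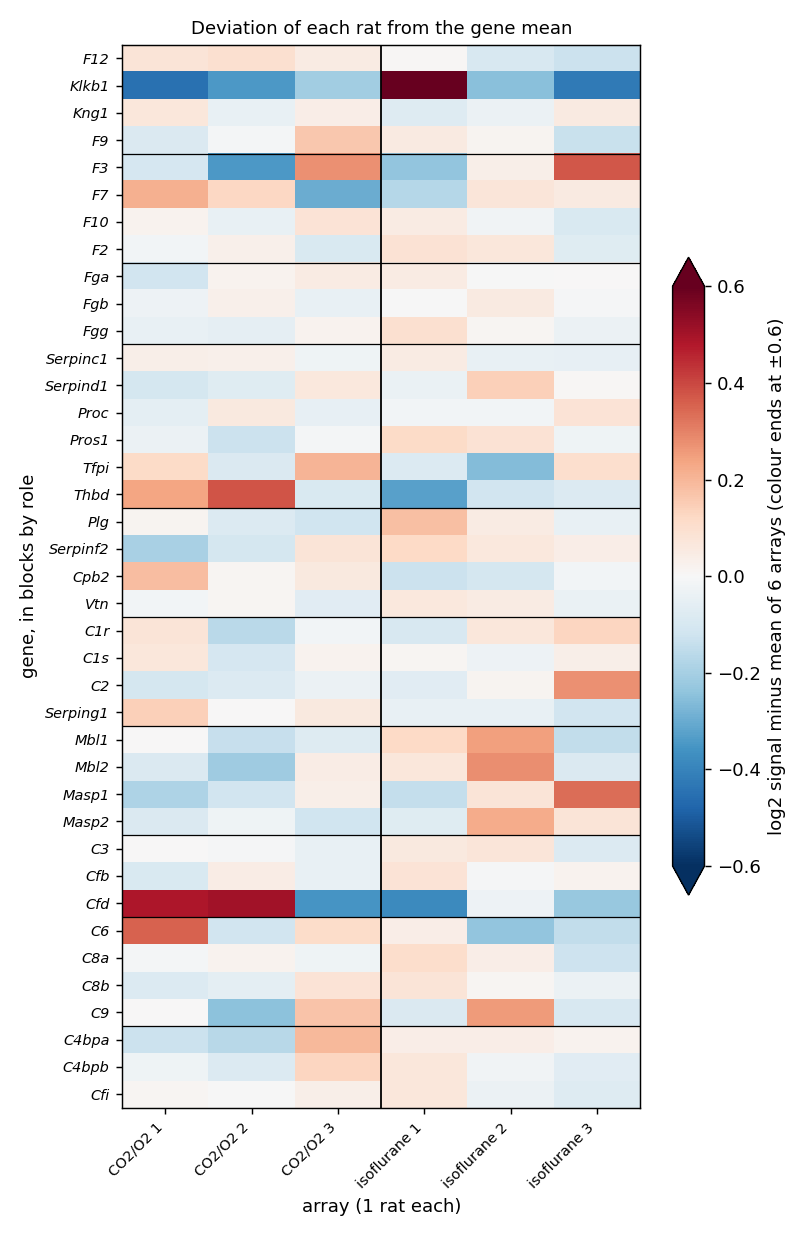
Deviation of each tested member (rows, ordered by role) on each of the 6 arrays (columns) from its mean over all arrays, as a colour scale in log2 units that ends at 0.6 either way. The first isoflurane array stands out for Klkb1, and the first 2 CO2/O2 arrays are high for Cfd.

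The members were steadier between rats than genes at large, but this held for the brightest probes only. The median within-group SD was 0.092 over all members, 0.077 for coagulation and 0.11 for complement, against 0.15 over all genes. Among probes with a mean log2 signal above 6, the median SD was 0.063 for 22 members and 0.11 for 479 genes, and 4 of the 22 were above the latter. Between 3 and 6, it was 0.14 for 12 members and 0.11 for 1969 genes, and 8 of the 12 were above the latter. The 5 dimmer members also had larger median SDs than genes of like signal. Taking all 6 rats together, 20 of 39 members spanned less than 1.2-fold, 34 less than 1.5-fold and 38 less than 2-fold, against 24.4%, 68.6% and 88.0% of all genes. The 4 members of highest SD were Klkb1 (0.83), Cfd (0.37), F3 (0.31) and F7 (0.22).

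**Figure D4:**
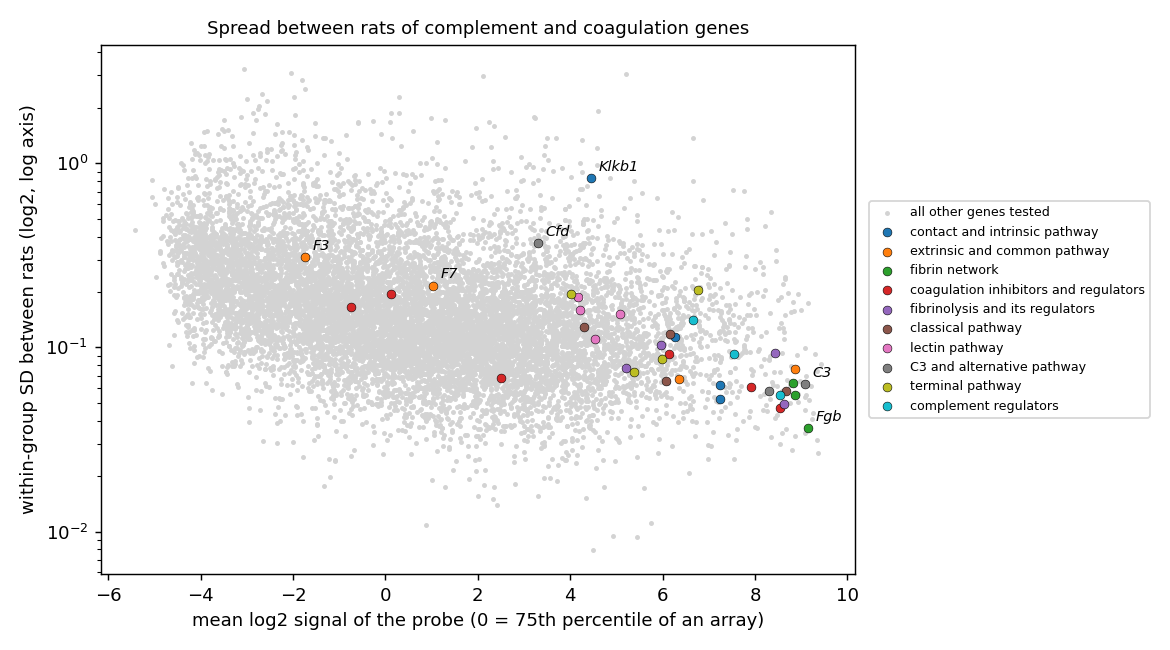
Within-group SD between rats (log2 units, vertical log axis) against the mean log2 signal (horizontal axis), with grey points for all tested genes and coloured points for the 39 members by role. The bright members on the right lie low, with Fgb at 0.036, while Klkb1 at 0.83 lies above them.

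Genes whose products form 1 protein or act as partners or counterparts in a pathway, and genes that lie close together, were asked whether they varied together over the 6 rats. Of 15 such pairs 11 had both genes measured, and 0 passed an adjusted p of 0.05 by exact permutation test of Pearson's r (two-sided, Benjamini-Hochberg over 11 pairs). The largest correlation was between Mbl1 and Mbl2, with r = 0.87 (exact permutation p = 0.0208, adjusted 0.229) and Spearman's rho = 0.89 (exact permutation p = 0.0333, adjusted 0.183). It was r = 0.38 without the 2 rats farthest from the median of Mbl1, both of the isoflurane group. Leaving out such rats narrows the range of the first gene and leaves few rats. A changed r therefore does not show what a correlation rested on. C4bpa and C4bpb, separated by 1 other gene on chromosome 13, gave r = 0.80 (exact permutation p = 0.0514, adjusted 0.283) and rho = 0.94 (exact permutation p = 0.0167, adjusted 0.183), with r = 0.27 without the 2 farthest rats. C1r and C1s gave r = 0.68 (exact permutation p = 0.133, adjusted 0.481), with r = 0.18 without the 2 farthest. The adjacent genes F7 and F10 gave r = -0.64 (exact permutation p = 0.175, adjusted 0.481), with r = 0.82 without the 2 farthest, and Proc with Pros1 gave r = -0.40 (exact permutation p = 0.443, adjusted 0.609), with r = 0.995 without them. On deviations from the group means, the smallest p was that of C4bpa with C4bpb, with r = 0.86 (permutation p = 0.0125, adjusted 0.138). Proc with Pros1 gave r = -0.96 there (permutation p = 0.0667, adjusted 0.244), but rho = -0.37, and r = 0.87 without the 2 farthest rats. Deviations centred within groups are not freely exchangeable between rats, so these p values are approximate. The fibrinogen chains, which are secreted as 1 molecule, gave r = 0.13 for Fga with Fgb, 0.57 for Fga with Fgg and -0.044 for Fgb with Fgg (exact permutation p = 0.818, 0.233 and 0.931). In these genes the 6 rats spanned only 0.097 to 0.16 log2. The 2 Fgb probes were highest in different rats, the second isoflurane rat (9.21) and the third CO2/O2 rat (9.20). With a spread this small, the r values cannot show whether the chains vary together.

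Genes of the same systems outside the 45 were described from lists chosen in the same way. Of 26 other coagulation and fibrinolysis genes 20 were tested, and 0 passed an adjusted p of 0.05 in limma. An unadjusted p under 0.05 was given by limma to 4 (20%, against 7.58% of all genes), and the median difference was 0.057. Ggcx, the carboxylase that makes the vitamin K-dependent factors functional, differed by 0.46 (SE 0.11) and Serpina5, the protein C inhibitor, by 0.45 (SE 0.19). Fgl2, a fibrinogen-like prothrombinase, differed by -0.51 (SE 0.13) and the urokinase receptor Plaur by -0.30 (SE 0.11). The groups did not overlap in these 4 genes, among 6 such genes of the 20 tested (30%, against 14.2% of all genes). However, Plaur was well above background on only 5 of 6 arrays and was tested through the CO2/O2 group, where it was higher. The substrates of Ggcx among the members, F2, F7, F9, F10, Proc and Pros1, had differences between -0.043 and 0.12.

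Of 26 other complement genes 18 were tested, and 0 passed in limma. An unadjusted p under 0.05 was given by limma to 7 of them (38.9%, against 7.58% of all genes). By sign 5 were higher and 13 lower (72.2% lower, against 52.9% of all genes), with a median difference of -0.19. The lower ones included Vsig4, a macrophage complement receptor (-0.62, SE 0.13), Itgb2, the shared chain of complement receptors 3 and 4 (-0.54, SE 0.15), C5ar1, the C5a receptor (-0.43, SE 0.13), and C1qb, a chain of C1q (-0.33, SE 0.11). The higher ones included Colec10, a collectin that can start the lectin pathway (0.49, SE 0.16), and the membrane regulator Cd46 (1.23, SE 0.36), which was well above background on 5 of 6 arrays and was tested through the isoflurane group, where it was higher. Of the Kupffer cell markers, which include Vsig4 and the C1q chains, 11 of 11 were lower after isoflurane, against 52.9% of all genes. Their median difference was -0.33. Their summed log2 level was 8.52, 8.55 and 8.22 under CO2/O2 and 8.20, 8.05 and 7.96 under isoflurane, and the part of macrophage content in these complement genes was not tested. The 12 hepatocyte markers had a median difference of 0.019 and a summed log2 level between 12.74 and 12.86 on all 6 arrays.

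Of 19 regulators of hepatocyte transcription 18 were tested, with 6 higher, 12 lower and a median difference of -0.14. None passed in limma, and 1 had an unadjusted p under 0.05: Cebpd, a C/EBP factor of the acute phase, which differed by -0.53 (SE 0.18). Cebpb, the related factor, differed by -0.43 (SE 0.20), the bile acid receptor Nr1h4 by -0.36 (SE 0.16), the glucocorticoid receptor Nr3c1 by -0.25 (SE 0.11) and Foxa1 by -0.40 (SE 0.18).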

How the data were processed

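Liver RNA of 6 rats was measured on 1-colour arrays, 1 rat per array. Images were read with Agilent Feature Extraction 10.7, per the submitters' processing notes. The deposited spot values are background-corrected intensity values on a linear scale, unscaled between arrays, per the file headers. The authors' deposited value table holds a linear ratio, found here to be each intensity divided by 1 number per array close to its 75th percentile, with no centring of probes, and was used as an alternative; its column medians were 0.0864, 0.0882 and 0.0868 for CO2/O2 and 0.0917, 0.0901 and 0.0905 for isoflurane.

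From the deposited intensity, log2 values were taken minus each array's 75th percentile over non-control probes, without the 177 outlier spots. A probe was tested where well above background on all 3 arrays of a group (limma 3.58.1, R 4.3.3; lmFit and eBayes; Benjamini-Hochberg over all tested probes, threshold 0.05). A gene took its brightest tested probe. Probes were named through RefSeq accessions (GRCr8, for names, gene order and promoters; the array headers name another build). The fit was checked on simulated data. Labels give separate rats, and p-values measure the spread between them.

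The members and gene lists were chosen with earlier results of these data known. Values of every array are given for members without overlap, of largest moderated t in their role, of the 4 highest SDs, and for fibrinogen and C8 chains; of other lists, at most 6 genes by moderated t, of which 1 is not reported here; Cyp4v3, Tlr3 and Fat1 were added after the Klkb1 values were seen.

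Alternatives were normexp with an offset of 50 (on the median signal, as no mean signal column was at hand), quantile normalization, median centring, the authors' table, filters on dim probes, outlier spots kept, eBayes with trend and robust, replicate number and slide row as blocks, the mean of a gene's probes, and leaving out each array. All 6 arrays lay on 1 slide with 1 scan, so no slide or scan block was run.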

Additional observations from a re-analysis of the deposited data

How the results depend on the processing

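No member passed an adjusted p of 0.05 under any of 17 alternatives, and neither did the other pathway genes. Members at an unadjusted p under 0.05, 0 as reported, were 1 with normexp, 1 with the filter on all 6 arrays and 1 with eBayes trend and robust (Thbd each time), 3 with median centring (Cpb2, F12 and Thbd), 1 with slide row as a block (Klkb1), and 0 to 2 with 1 array left out (Cfd and Thbd without CO2/O2 replicate 3, Mbl1 without isoflurane replicate 3). Median centring lowers every isoflurane difference alike: the medians were -0.028 for coagulation and -0.016 for complement, 5 members did not overlap, and the differences of F2 (-0.0058), Fga (-0.028), Fgb (-0.031), Fgg (-0.0084), C8a (-0.047) and C8b (-0.022) changed sign. With slide row as a block, 1 gene of all tested was called and F3 was -0.18; under this block only isoflurane replicate 1 is set against the CO2/O2 group. One of the pair correlations, a count of 1, passed with normexp and 1 with median centring. With 1 array left out, 0 to 8 of all genes were called (8 without isoflurane replicate 1, 4 without CO2/O2 replicate 3). Non-overlapping members were then 3 to 13 (CO2/O2 replicate 2 left out 9, replicate 3 left out 13, isoflurane replicate 1 left out 9, replicate 3 left out 12). In any gene, 3 against 2 values overlap less often. The share of all genes without overlap was not counted with an array left out or with median centring, so these counts have no background beside them. With 1 array left out, the medians ran from 0.014 to 0.037 for coagulation and from 0.011 to 0.066 for complement. The sign changed for F7 (-0.19 to 0.072), Fga (-0.018 to 0.063), F3 (-0.044 to 0.28), Klkb1 (-0.0028 to 1.05) and C8a (-0.037 to 0.079). Replicate numbers did not pair the rats: same-numbered rats' deviations correlated at 0.113, 0.0207 and 0.0602. With the replicate number as a block, 0 members were called, 0 had an unadjusted p under 0.05, and the smallest adjusted p of a member in limma was 0.626 (C6). The number of arrays limits the precision.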
